A study of Homo sapiens with 10 samples.

Results

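MCF10A is an immortalized, non-transformed human mammary epithelial cell line, and G12V cells are the same line into which HRas with the activating G12V substitution was introduced by lentivirus, beside a GFP vector, before selection with hygromycin. The study asked how expression differs after this transformation. Poly(A) RNA of 2 untreated MCF10A and 2 G12V libraries was compared here, out of 10 samples of the series, and the other samples are MCF10A cells given DMSO or 10 µM Nutlin-3a for 4 h. By the study's account proliferation of the transduced cells stopped for a time before it resumed, and no empty vector is described for the MCF10A libraries, so transduction, selection and time in culture cannot be told apart from the oncogene. All genes with enough reads for a test were taken, without regard to their change. These were 14376 of the 26256 genes in the table of counts. The total counts ranged from 21538593 to 23683975 per library. Values are given as counts per 1000000 normalized reads (CPM), and a gene is called differentially expressed (DE) at an adjusted p under 0.05 with an absolute log2 fold change above 0.5.

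HRas is a small GTPase that relays signals from growth factor receptors through the RAF, MEK and ERK kinases, and the G12V form stays bound to GTP. ERK raises the transcription of growth factor ligands and cytokines, and also of phosphatases and SPRY and SPRED proteins that damp the pathway. MCF10A cells carry a basal epithelial program, in which TP63 and its partners maintain stratified keratins, desmosomes, hemidesmosomes and laminin-332.

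HRAS had 72.6 and 65.9 CPM in MCF10A and 631 and 515 CPM in G12V cells. Both G12V libraries were higher than both MCF10A libraries (log2 fold change 3.05, SE 0.23, edgeR adjusted p = 0.00165), and the counts do not separate the introduced from the endogenous transcript. The loci CDKN2A and CDKN2B, which are deleted in the line, had 0 reads in every library. Of all genes tested 5.01% were DE and higher (720 genes) and 5.95% DE and lower (855 genes) in G12V cells. Counts of list members below are to be read beside these shares. Without MCF10A replicate 1 edgeR's quasi-likelihood test called 0 genes, with 2830 genes at an unadjusted p under 0.05 and a lowest adjusted p of 0.0502, while DESeq2 called 1489 and edgeR's exact test 2118 genes on the same 3 libraries. Without G12V replicate 1 the higher genes numbered 1126, and calls named below that were lost without another library are given as such. The p-values measure the spread between these samples.

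The falls were larger than the rises. DE genes that were higher had a median log2 fold change of 2.06 and those that were lower of -2.60, and 67 rose by more than 5 on this scale while 188 fell by as much. Of the lower genes 72 went from at least 10 CPM on average to under 1 CPM, and 25 of the higher genes made the opposite step. The higher genes together held 1.97% and 1.80% of all normalized reads in the MCF10A libraries and 5.88% and 6.96% in G12V cells. The lower genes held 7.41% and 8.02% in the MCF10A libraries and 1.82% and 1.79% in G12V cells. In bulk RNA fewer cells that express a gene and less RNA per cell cannot be told apart.

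The labelled epithelial origin was read from markers. Of 9 basal mammary markers 8 were lower in G12V cells, and KRT14 and TP63 had at most 5 reads in either G12V library. The basal markers summed to 10158 and 14198 CPM in MCF10A and 1664 and 2538 CPM in G12V cells. Of 7 tested luminal markers 4 were lower and 0 higher, with a sum of 1170.4 and 1078 CPM in MCF10A and 473 and 477 CPM in G12V cells, and KRT8 had 219 and 172 CPM in MCF10A and 211 and 233 CPM in G12V cells. Of 10 fibroblast markers 6 were tested, with LUM higher and FAP lower and a sum of 114 and 127 CPM in MCF10A and 76.1 and 87.5 CPM in G12V cells. Of 8 immune markers 3 were tested, with a sum of 32.0 and 50.7 CPM in MCF10A and 60.6 and 114 CPM in G12V cells. In the endothelial and fat cell lists 3 of 6 and 1 of 4 genes were tested, and edgeR's quasi-likelihood test called 0 of them. At an unadjusted p under 0.05 and with DESeq2 1 endothelial gene was higher (TEK) and 1 lower (KDR), and with the exact test 1 was higher. Among markers of other cells, the leukocyte gene PTPRC had at most 1 read, MS4A1, NKG7 and the fat cell gene FABP4 had 0 reads, and the fibroblast genes COL1A2 and COL3A1 had at most 1 read per library. Other members were present, with 557 to 1324 reads of DCN, 424 to 594 of TWIST2, 76 to 254 of COL1A1 and 396 to 888 of CD14 per library. CD68, a lysosomal protein of macrophages that other cells also make, was the 1 immune marker that rose (log2 fold change 2.17, SE 0.35, edgeR adjusted p = 0.0155).

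Promoters of genes that the results turn on are shown first, because they carry short words known from the literature as sites of NF-kB, of ZEB and SNAI repressors (E-boxes) and of NRF2 (antioxidant response elements). They are RefSeq sequences of GRCh38.p14, printed 5′ to 3′ on the strand of the gene from 250 bases before to 50 bases after the start. Matches are in capitals, for the NF-kB word of 10 letters, of which 1 may be any base, in CXCL1, CXCL3 and IL6, for CACCTG in CRB3 and for TGACNNNGC in GCLM, each searched on both strands. The matches printed do not overlap a match of another of these words or of TGANTCA. CXCL1 lies at chr4:73869143-73869442 on the plus strand, CXCL3 at chr4:74038640-74038939 on the minus strand, IL6 at chr7:22726950-22727249 on the plus strand, CRB3 at chr19:6464021-6464320 on the plus strand and GCLM at chr1:93909381-93909680 on the minus strand.
CXCL1: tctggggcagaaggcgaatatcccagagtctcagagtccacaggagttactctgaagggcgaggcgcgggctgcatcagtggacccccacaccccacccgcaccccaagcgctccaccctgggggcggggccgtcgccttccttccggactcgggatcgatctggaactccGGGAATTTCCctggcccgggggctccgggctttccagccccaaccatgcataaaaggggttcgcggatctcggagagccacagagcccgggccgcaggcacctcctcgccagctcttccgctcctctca
CXCL3: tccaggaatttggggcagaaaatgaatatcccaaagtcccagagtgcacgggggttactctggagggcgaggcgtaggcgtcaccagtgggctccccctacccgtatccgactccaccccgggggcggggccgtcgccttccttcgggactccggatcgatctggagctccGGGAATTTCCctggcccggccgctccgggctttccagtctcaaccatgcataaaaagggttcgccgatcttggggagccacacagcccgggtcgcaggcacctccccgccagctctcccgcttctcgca
IL6: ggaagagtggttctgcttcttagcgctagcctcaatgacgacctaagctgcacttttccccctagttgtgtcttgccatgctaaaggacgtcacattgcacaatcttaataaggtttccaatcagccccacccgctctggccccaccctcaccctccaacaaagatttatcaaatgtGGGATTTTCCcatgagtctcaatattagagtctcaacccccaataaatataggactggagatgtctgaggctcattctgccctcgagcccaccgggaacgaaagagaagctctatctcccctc
CRB3: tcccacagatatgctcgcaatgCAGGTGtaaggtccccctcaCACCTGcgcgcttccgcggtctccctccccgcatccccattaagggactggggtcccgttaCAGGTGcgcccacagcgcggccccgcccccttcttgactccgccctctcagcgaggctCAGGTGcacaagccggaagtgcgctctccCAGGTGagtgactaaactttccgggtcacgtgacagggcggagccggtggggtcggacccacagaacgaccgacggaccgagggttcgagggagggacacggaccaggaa
GCLM: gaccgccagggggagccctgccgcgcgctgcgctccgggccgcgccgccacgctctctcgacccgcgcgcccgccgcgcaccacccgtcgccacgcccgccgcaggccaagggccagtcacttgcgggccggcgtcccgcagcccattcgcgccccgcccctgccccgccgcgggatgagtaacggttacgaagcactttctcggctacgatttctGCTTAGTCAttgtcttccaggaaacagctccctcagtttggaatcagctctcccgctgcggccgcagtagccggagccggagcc

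The chemokine and IL6 promoters hold 1 NF-kB word each, which begins 79, 79 and 73 bases before the start. CRB3 holds 5 E-boxes, which begin 228, 208, 147, 89 and 60 bases before the start, and GCLM 1 antioxidant word at 34 bases. Promoter windows were found for 10467 of the tested genes, 15266 windows in all since a gene can have several starts. CACCTG stood in 18.9% of all windows, in 18.1% of those of higher genes and in 26.6% of those of lower genes. The NF-kB word stood in 0.550% of all windows, in 1.29% of those of higher genes and in 0.394% of those of lower genes. TGACNNNGC stood in 14.3% of all windows and in 31.0% of the 29 windows of the NRF2 list described below, and in 31.2% of the 16 windows of the tight junction list. The AP-1 word TGANTCA stood in 5.74% of all windows, in 9.03% of those of higher genes and in 8.68% of those of lower genes. These shares are descriptions, and a match is not a bound site.

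Genes of cell-cell junctions were lower more often than higher. Of 10 tested desmosome genes 8 were lower and 0 higher, with a median log2 fold change of -2.54 beside -0.0011 over all genes tested. At an unadjusted p under 0.05, and with DESeq2 and edgeR's exact test, 9 were lower and 0 higher. DSG3 had 220.1 and 362 CPM in MCF10A and 3.42 and 2.59 CPM in G12V cells, and DSC3 had 207 and 401 CPM in MCF10A and 3.76 and 2.94 CPM in G12V cells. Both are desmosomal cadherins of stratified epithelia, and the G12V libraries lay far below the MCF10A libraries (log2 fold change -6.59, SE 0.37, edgeR adjusted p = 0.000788 for DSG3). DSC2 had 53.8 and 62.6 CPM in MCF10A and 2.01 and 1.56 CPM in G12V cells (log2 fold change -5.02, SE 0.27, edgeR adjusted p = 0.000788). JUP, the plakoglobin that joins desmosomal cadherins to the cytoskeleton, had 404 and 609 CPM in MCF10A and 55.1 and 74.5 CPM in G12V cells (log2 fold change -2.97, SE 0.30, edgeR adjusted p = 0.00424). DSG2, the desmosomal cadherin of simple epithelia, was not DE, with 400.2 and 472 CPM in MCF10A and 244 and 287 CPM in G12V cells.

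**Figure D1:**
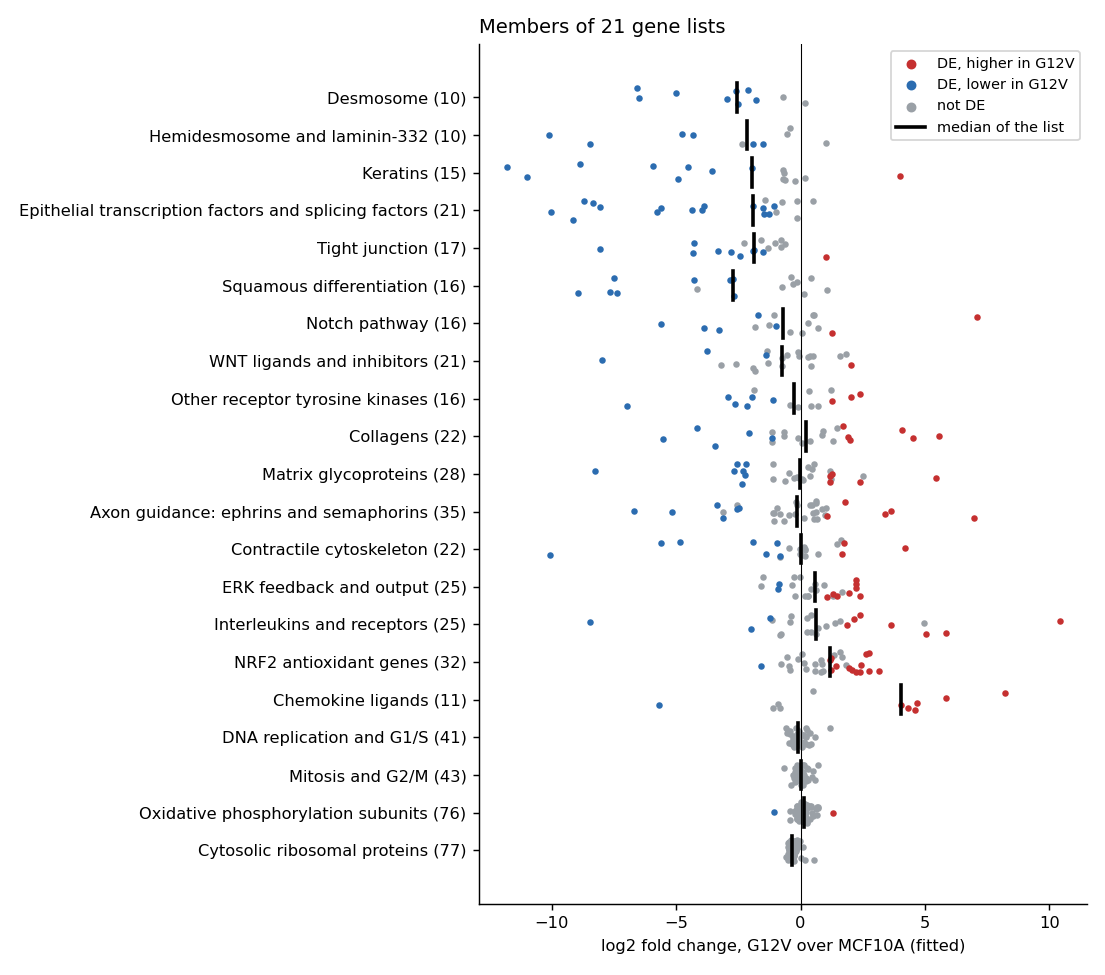
Fitted log2 fold changes (G12V over MCF10A, x axis) of the tested members of 21 gene lists, with the number tested in brackets, 1 point per gene and a black bar at the median of the list. Desmosome, hemidesmosome, keratin, epithelial factor, tight junction and squamous lists have medians left of 0, chemokine and NRF2 lists right of 0, and replication and mitosis genes lie close to 0. Ribosomal genes have a median of -0.35. Fitted values of genes with few reads in a group depend on the prior count.

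The hemidesmosome anchors basal cells to laminin-332, and 6 of its 10 genes were lower and 0 higher, with 8 lower and 0 higher at an unadjusted p under 0.05 and 7 lower and 0 higher with DESeq2 and with the exact test. COL17A1, a transmembrane collagen of hemidesmosomes, had 616 and 924 CPM in MCF10A and 2.82 and 1.47 CPM in G12V cells (log2 fold change -8.48, SE 0.48, edgeR adjusted p = 0.000788). LAMA3, the α3 chain of laminin-332, had 869.6 and 829 CPM in MCF10A and 44.0 and 41.8 CPM in G12V cells (log2 fold change -4.31, SE 0.23, edgeR adjusted p = 0.000788). Its β3 chain did not follow. LAMB3 had 1063 and 1210.3 CPM in MCF10A and 1209 and 3364 CPM in G12V cells, so that the groups overlapped and the difference was not DE (edgeR adjusted p = 0.274). ITGB4 had 2121 and 4279 CPM in MCF10A and 359 and 907 CPM in G12V cells, and this integrin of the hemidesmosome was not DE either (edgeR adjusted p = 0.0534). LAD1, an anchoring filament protein, fell at least 1158-fold, to 3 reads or fewer in both G12V libraries.

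Tight junction genes fell in 9 of 17 and rose in 1, with a median of -1.86. CRB3, a polarity protein of the apical membrane whose promoter is shown above, had 11.3 and 15.4 CPM in MCF10A and 0 and 0.0892 CPM in G12V cells. With 0 and 2 reads in G12V cells it was at least 102-fold lower. CLDN7 had 105 and 89.9 CPM in MCF10A and 8.72 and 10.9 CPM in G12V cells (log2 fold change -3.31, SE 0.22, edgeR adjusted p = 0.00128). CLDN1 varied between the MCF10A libraries, with 199.5 and 790.4 CPM in MCF10A and 20.5 and 29.3 CPM in G12V cells (log2 fold change -4.31, SE 0.69, edgeR adjusted p = 0.0149). Its groups did not overlap, which held for 7880 of all 14376 genes tested. CLDN12 moved the other way, with 33.2 and 28.8 CPM in MCF10A and 56.3 and 68.9 CPM in G12V cells (log2 fold change 1.01, SE 0.21, edgeR adjusted p = 0.0313). CLDN12 was not DE without MCF10A replicate 2 (0.91) or without G12V replicate 2 (0.86). The scaffold gene TJP1, which links the junction to actin, had a log2 fold change of -0.63 and was not DE.

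Of 12 cadherins, catenins and nectins tested 2 were higher and 3 lower. CDH1 had 199.5 and 238 CPM in MCF10A and 0.428 and 0.535 CPM in G12V cells and CDH3 had 333 and 398 CPM in MCF10A and 2.39 and 6.20 CPM in G12V cells. They encode E-cadherin and P-cadherin, and both fell (log2 fold change -6.41, SE 0.50, edgeR adjusted p = 0.00197 for CDH3). PVRL1, which encodes nectin-1, had 194 and 209.9 CPM in MCF10A and 39.3 and 27.8 CPM in G12V cells (log2 fold change -2.59, SE 0.23, edgeR adjusted p = 0.00308). N-cadherin rose, since CDH2 had 30.2 and 24.7 CPM in MCF10A and 104 and 117 CPM in G12V cells (log2 fold change 2.01, SE 0.20, edgeR adjusted p = 0.00380). The cytoplasmic partners CTNNA1 and CTNNB1 had log2 fold changes of -0.25 and -0.58 and were not DE. CTNND2, a catenin best known from neurons, had 0 reads in both MCF10A libraries and 1.88 and 3.39 CPM in G12V cells, at least 19.6-fold higher.

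Keratins form the intermediate filaments of epithelial cells. Of 15 tested keratins 8 were lower and 1 higher, with a median of -1.96. The summed level of the 15 genes was 16119 and 14274 CPM in MCF10A and 5807 and 6936 CPM in G12V cells. KRT15 had 69.2 and 237 CPM in MCF10A and 3.93 and 6.11 CPM in G12V cells, and KRT16 had 20.3 and 17.9 CPM in MCF10A and 0.0428 and 0.580 CPM in G12V cells. KRT15 marks resting basal cells and KRT16 activated ones, and both were far lower in each G12V library (log2 fold change -4.93, SE 0.66, edgeR adjusted p = 0.00880 for KRT15). KRT5, the most abundant basal keratin, fell, with 3714 and 4675 CPM in MCF10A and 936 and 1220.2 CPM in G12V cells (log2 fold change -1.96, SE 0.32, edgeR adjusted p = 0.0158). KRT5 was not DE without G12V replicate 1 (-1.78). Some abundant keratins were not called. KRT81 had 4698 and 2701 CPM in MCF10A and 1941 and 2648 CPM in G12V cells, while KRT7 had 3810.1 and 2782 CPM in MCF10A and 2056 and 2136 CPM in G12V cells, and the tests missed the threshold (edgeR adjusted p = 0.335 and 0.249). KRT80 was the 1 keratin that rose, with 26.1 and 16.2 CPM in MCF10A and 315 and 359 CPM in G12V cells (log2 fold change 4.00, SE 0.30, edgeR adjusted p = 0.00171). Keratins are a family of similar copies with pseudogenes, so reads may have been split between members.

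**Figure D2:**
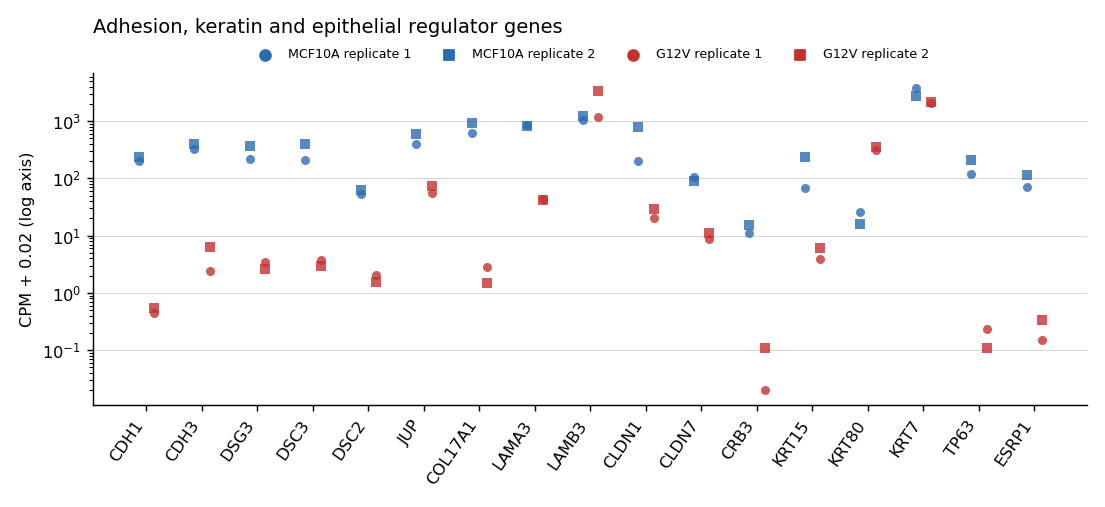
Normalized level of 17 adhesion, keratin and epithelial regulator genes in each library, as CPM + 0.02 on a log axis, with MCF10A in blue, G12V in red, circles for replicate 1 and squares for replicate 2. Red points lie far below blue points in all genes except LAMB3, KRT80 and KRT7, of which LAMB3 overlaps, KRT80 is higher and KRT7 lies closer.

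Products of squamous differentiation were lower in 8 of 16 genes and higher in 0, with 9 lower and 1 higher at an unadjusted p under 0.05 and 9 lower and 0 higher with DESeq2 and with the exact test. The median was -2.71. TGM1, the transglutaminase that crosslinks the cornified envelope, had 40.7 and 60.7 CPM in MCF10A and 2.65 and 2.54 CPM in G12V cells (log2 fold change -4.28, SE 0.30, edgeR adjusted p = 0.00141). PPL, the plakin periplakin, had 139 and 302 CPM in MCF10A and 23.2 and 38.2 CPM in G12V cells (log2 fold change -2.84, SE 0.44, edgeR adjusted p = 0.0139). SCEL and SPRR1B were at or near 0 reads in G12V cells and were at least 89.7-fold and at least 42.5-fold lower. CSTB and EVPL, also components or inhibitors found in the envelope, had log2 fold changes of -0.12 and 0.13 and were not DE. All 4 kallikreins tested, which are secreted proteases, were lower at low levels. KLK10 had 7.73 and 2.95 CPM in MCF10A and 0.171 and 0 CPM in G12V cells, and its log2 fold change of -5.85 became -9.90 without G12V replicate 1, which left no reads in that group.

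Of 13 tested S100 genes, which encode small calcium-binding proteins, 3 were lower and 0 higher, with 7 lower and 1 higher at an unadjusted p under 0.05 and 6 lower and 1 higher with DESeq2 and with the exact test. S100A14 had 493 and 749 CPM in MCF10A and 0.812 and 2.14 CPM in G12V cells (log2 fold change -8.72, SE 0.56, edgeR adjusted p = 0.00124), and S100A2 had 1619 and 1370.4 CPM in MCF10A and 85.0 and 59.2 CPM in G12V cells (log2 fold change -4.37, SE 0.31, edgeR adjusted p = 0.00150). S100A6 stayed high, with 929 and 1273 CPM in MCF10A and 1251 and 2037 CPM in G12V cells, and was not DE. Among 10 clade B serpins, protease inhibitors that stay inside cells or are secreted, 2 were higher and 3 lower. SERPINB5 had 405 and 339 CPM in MCF10A and 101 and 127 CPM in G12V cells (log2 fold change -1.71, SE 0.22, edgeR adjusted p = 0.00823), and SERPINB1 had 43.1 and 49.9 CPM in MCF10A and 104 and 201 CPM in G12V cells (log2 fold change 1.72, SE 0.33, edgeR adjusted p = 0.0268). SERPINB4 rose mainly in 1 library, with 0.136 and 0.308 CPM in MCF10A and 1.84 and 21.2 CPM in G12V cells, and shares near-identical sequence with SERPINB3. Its log2 fold change was 5.65, and 3.01 without G12V replicate 2.

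Of 21 tested transcription and splicing factors 15 were lower and 0 higher, the median being -1.89. At an unadjusted p under 0.05 the list had 17 lower and 0 higher genes, and 16 lower and 0 higher with DESeq2 and with the exact test. TP63 had 119 and 214 CPM in MCF10A and 0.214 and 0.0892 CPM in G12V cells. This p53 relative maintains basal cells, and the G12V libraries held 5 and 2 of its reads (log2 fold change -10.04, SE 0.53, edgeR adjusted p = 0.000788). ESRP1 had 71.6 and 115 CPM in MCF10A and 0.128 and 0.312 CPM in G12V cells and TRIM29 had 267 and 485 CPM in MCF10A and 1.28 and 1.52 CPM in G12V cells. ESRP1 directs epithelial splicing, and both genes fell (log2 fold change -8.70, SE 0.48, edgeR adjusted p = 0.000788 for ESRP1). Its paralog ESRP2 was not DE, with 101 and 62.9 CPM in MCF10A and 56.5 and 40.8 CPM in G12V cells, nor was TFAP2C, with 35.5 and 44.0 CPM in MCF10A and 37.2 and 34.5 CPM in G12V cells.

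Factors that promote epithelial-mesenchymal transition did not move as a block. Of 11 tested 2 were higher and 1 lower, beside 5.01% higher and 5.95% lower of all genes. ZEB1 and ZEB2 are repressors that bind E-boxes. ZEB1 had 6.82 and 4.71 CPM in MCF10A and 37.9 and 53.3 CPM in G12V cells (log2 fold change 2.98, SE 0.31, edgeR adjusted p = 0.00447), and ZEB2 had 5.54 and 6.69 CPM in MCF10A and 22.8 and 25.3 CPM in G12V cells (log2 fold change 1.97, SE 0.25, edgeR adjusted p = 0.00780). SNAI2 fell, with 54.8 and 74.3 CPM in MCF10A and 10.3 and 12.7 CPM in G12V cells (log2 fold change -2.49, SE 0.26, edgeR adjusted p = 0.00430). TWIST1 and FOXC2 had log2 fold changes of 0.45 and 0.30 and were not DE.

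HOX genes encode position factors and lie in clusters, and 5 of the 21 tested were higher and 0 lower, with 7 higher and 2 lower at an unadjusted p under 0.05, 6 higher and 0 lower with DESeq2 and 7 higher and 0 lower with the exact test. The 5 genes all belong to the HOXB cluster on chromosome 17. HOXB4 had 2.14 and 1.89 CPM in MCF10A and 7.70 and 11.4 CPM in G12V cells (log2 fold change 2.24, SE 0.36, edgeR adjusted p = 0.0148), and HOXB9 had 0.409 and 0.132 CPM in MCF10A and 3.85 and 21.2 CPM in G12V cells (log2 fold change 5.51, SE 1.04, edgeR adjusted p = 0.0250). The 22 tested genes other than HOX genes that lie within 1 Mb of the cluster had a median log2 fold change of -0.0067, with 2 higher and 2 lower. Further along, the 290 genes tested from 50 Mb of chromosome 17 on had a median of 0.56, with 44 higher and 4 lower. Up to 50 Mb the median of 603 genes was -0.013, with 32 higher and 39 lower. The part of this regional difference in the HOXB rise was not tested. Reads of neighbouring and antisense HOX transcripts may be shared, as the strand setting of the counting is not given.

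The ERK pathway's own outputs rose in part. Of 25 genes of feedback and output 8 were higher and 2 lower, with a median of 0.58. DUSP4 and DUSP5 are phosphatases that inactivate ERK. DUSP4 had 181 and 114 CPM in MCF10A and 412 and 959 CPM in G12V cells (log2 fold change 2.22, SE 0.46, edgeR adjusted p = 0.0333), and DUSP5 had 21.5 and 23.5 CPM in MCF10A and 62.0 and 151 CPM in G12V cells (log2 fold change 2.24, SE 0.42, edgeR adjusted p = 0.0251). G12V replicate 2 lay well above G12V replicate 1 in both genes, and without it DUSP5 was at 1.46. SPRED3, an inhibitor of RAF activation, had 2.73 and 2.82 CPM in MCF10A and 13.9 and 12.5 CPM in G12V cells (log2 fold change 2.25, SE 0.29, edgeR adjusted p = 0.00780), and LIF, a cytokine of the IL-6 family, had 14.1 and 7.31 CPM in MCF10A and 60.5 and 51.7 CPM in G12V cells (log2 fold change 2.39, SE 0.35, edgeR adjusted p = 0.0114). DUSP7, another ERK phosphatase, and KCNN4, a potassium channel, had smaller falls (-0.91 and -0.88). DUSP7 was not DE without MCF10A replicate 2 (-0.96), without G12V replicate 1 (-0.93) or without G12V replicate 2 (-0.90). KCNN4 was not DE without MCF10A replicate 2 (-0.79), without G12V replicate 1 (-0.86) or without G12V replicate 2 (-0.90). The early response gene DUSP1 had 266 and 494 CPM in MCF10A and 445 and 999 CPM in G12V cells, where the groups overlapped, and PHLDA1 had 196 and 156 CPM in MCF10A and 298 and 581 CPM in G12V cells. Neither was DE (edgeR adjusted p = 0.293 and 0.0690).

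Genes of the RAS cycle itself were mostly not DE, 2 of 29 being higher and 2 lower, beside 5.01% higher and 5.95% lower of all genes. The share of DE genes in this list (13.8%) was thus close to that of all genes. Besides HRAS the higher gene was RASA3, a GTPase-activating protein (log2 fold change 1.29, SE 0.20, edgeR adjusted p = 0.0144). DAB2IP, another such protein, had 119.8 and 139.6 CPM in MCF10A and 31.2 and 32.2 CPM in G12V cells (log2 fold change -2.03, SE 0.18, edgeR adjusted p = 0.00306), and the RAS effector RIN1 fell by less (log2 fold change -0.81, SE 0.19, edgeR adjusted p = 0.0470). RIN1 was not DE without MCF10A replicate 2 (-0.71), without G12V replicate 1 (-0.91) or without G12V replicate 2 (-0.72). MAP2K1, which encodes the kinase MEK1, had a log2 fold change of 0.25 and was not DE.

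Growth factor receptor genes were lower more often than higher. EREG, a ligand of EGFR, had 20.0 and 12.6 CPM in MCF10A and 233 and 264 CPM in G12V cells (log2 fold change 3.93, SE 0.29, edgeR adjusted p = 0.00159), while the receptor genes EGFR and ERBB3 fell. EGFR had 425 and 646 CPM in MCF10A and 140.5 and 173 CPM in G12V cells (log2 fold change -1.77, SE 0.28, edgeR adjusted p = 0.0143), and ERBB3 had 21.5 and 33.6 CPM in MCF10A and 3.16 and 5.04 CPM in G12V cells (log2 fold change -2.75, SE 0.37, edgeR adjusted p = 0.00902). Of 16 other receptor tyrosine kinases 3 were higher and 6 lower. The FGF receptors split. FGFR1 had 9.59 and 7.58 CPM in MCF10A and 36.6 and 32.6 CPM in G12V cells and FGFR4 had 3.36 and 2.29 CPM in MCF10A and 12.1 and 17.8 CPM in G12V cells, so both rose (log2 fold change 2.01, SE 0.24, edgeR adjusted p = 0.00670 for FGFR1). FGFR2 had 11.5 and 10.8 CPM in MCF10A and 1.71 and 1.25 CPM in G12V cells and FGFR3 had 41.8 and 104 CPM in MCF10A and 0.812 and 0.312 CPM in G12V cells, so both fell (log2 fold change -2.91, SE 0.34, edgeR adjusted p = 0.00609 for FGFR2). DDR1, a collagen receptor, and MST1R, the receptor of macrophage-stimulating protein, fell as well (-2.15 and -2.63). MET and AXL, the most abundant members that were not DE, had log2 fold changes of -0.43 and -0.093.

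In the WNT list 1 of 21 genes was higher and 3 were lower, with 2 higher and 6 lower with DESeq2 and 3 higher and 8 lower with the exact test. SFRP1, a secreted WNT antagonist, had 521 and 492 CPM in MCF10A and 40.4 and 33.7 CPM in G12V cells (log2 fold change -3.77, SE 0.22, edgeR adjusted p = 0.000894). WNT5A, a ligand of the non-canonical branch, had 6.45 and 6.03 CPM in MCF10A and 22.4 and 29.2 CPM in G12V cells (log2 fold change 2.05, SE 0.26, edgeR adjusted p = 0.00780), whereas WNT7A was at 1 and 0 reads in G12V cells and was at least 52.3-fold lower. Of 16 Notch genes 2 were higher and 5 lower. NOTCH1 had 197 and 333 CPM in MCF10A and 80.3 and 83.5 CPM in G12V cells (log2 fold change -1.69, SE 0.28, edgeR adjusted p = 0.0175), and HES2 had 94.9 and 68.9 CPM in MCF10A and 4.23 and 7.0 CPM in G12V cells (log2 fold change -3.87, SE 0.34, edgeR adjusted p = 0.00294). NOTCH2 had 194 and 198 CPM in MCF10A and 266 and 296 CPM in G12V cells and was not DE. In the TGF-β list 2 of 27 genes were lower and 0 higher, with 10 lower and 3 higher at an unadjusted p under 0.05 and 7 lower and 3 higher with DESeq2 and with the exact test. The called genes were LTBP2, a matrix protein of the latent TGF-β binding protein family (log2 fold change -1.94, SE 0.19, edgeR adjusted p = 0.00359), and ID3, an inhibitor of helix-loop-helix factors (log2 fold change -2.57, SE 0.36, edgeR adjusted p = 0.0104), a count close to the 5.95% of all genes that were lower. YAP and TAZ targets had 1 higher and 1 lower gene of 18, beside 5.01% higher and 5.95% lower of all genes. They were WWTR1, which encodes TAZ itself (0.82), and AMOTL1, an angiomotin (-1.12). WWTR1 was not DE without MCF10A replicate 2 (0.71) or without G12V replicate 2 (0.73). AMOTL1 was not DE without MCF10A replicate 2 (-0.94) or without G12V replicate 1 (-1.02). DESeq2 and the exact test each called 4 higher and 3 lower genes of this list.

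**Figure D3:**
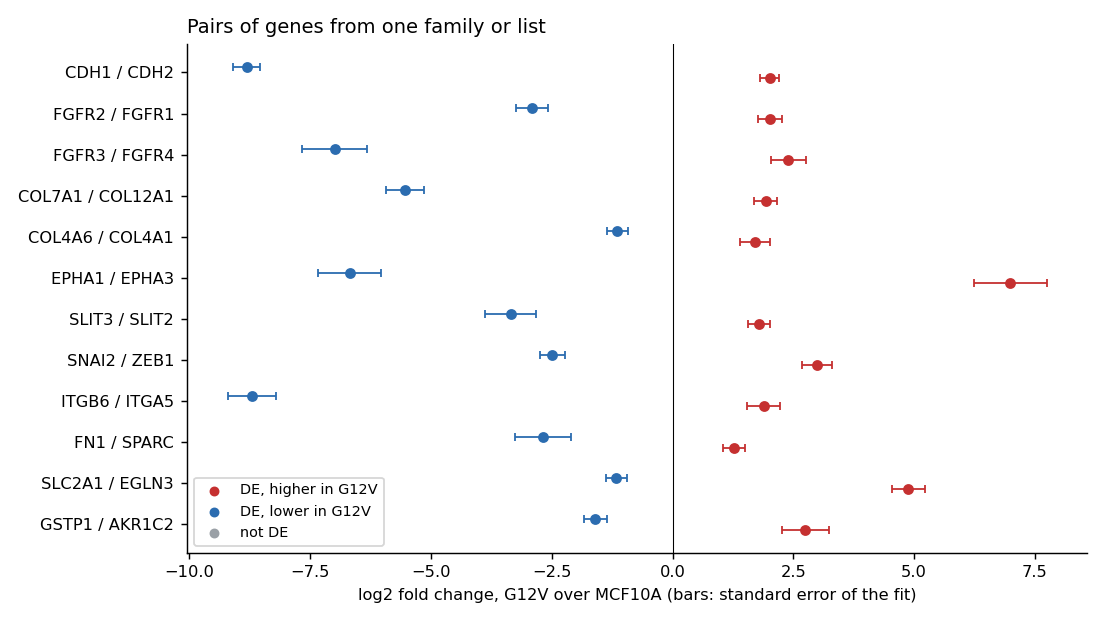
Fitted log2 fold changes (G12V over MCF10A, x axis) with standard errors for 12 pairs of genes from one family or list, picked for their opposite directions, with DE genes higher in G12V cells in red and lower in blue. In each pair 1 gene fell and the other rose, for example FGFR2 at -2.91 and FGFR1 at 2.01.

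Matrix genes moved in both directions. Of 22 collagens 6 were higher and 5 lower, with a median of 0.23, and the sum was 962 and 966 CPM in MCF10A and 1011 and 1304 CPM in G12V cells. COL7A1, the anchoring fibril collagen of the basement membrane, had 149.9 and 92.6 CPM in MCF10A and 3.25 and 1.96 CPM in G12V cells (log2 fold change -5.53, SE 0.39, edgeR adjusted p = 0.00141). COL12A1, a collagen that coats fibrils, had 59.2 and 40.8 CPM in MCF10A and 181 and 199 CPM in G12V cells (log2 fold change 1.92, SE 0.24, edgeR adjusted p = 0.00720), and the beaded filament genes COL6A1 and COL6A2 rose too (2.0 and 5.58). Of 28 matrix glycoproteins 5 were higher and 7 lower. LOXL2 had 31.9 and 18.5 CPM in MCF10A and 117 and 148 CPM in G12V cells (log2 fold change 2.39, SE 0.31, edgeR adjusted p = 0.00811), and SPARC had 81.6 and 80.6 CPM in MCF10A and 165 and 227 CPM in G12V cells (log2 fold change 1.27, SE 0.22, edgeR adjusted p = 0.0186). LOXL2 crosslinks collagen and SPARC binds it. POSTN, an adhesion protein of the matrix, fell to 1 and 0 reads and was at least 64.9-fold lower, and SPOCK1, a proteoglycan, fell by 2.30 on the log2 scale. LAMA5 and AGRN had log2 fold changes of 0.094 and -0.62 and were not DE.

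Proteases and their inhibitors moved both ways, 3 of 18 metalloproteinase genes being higher and 4 lower. TIMP3, an inhibitor of metalloproteinases that binds the matrix, had 317 and 354 CPM in MCF10A and 0.727 and 0.491 CPM in G12V cells (log2 fold change -9.09, SE 0.31, edgeR adjusted p = 0.000337), among the largest falls of abundant genes. TIMP1, its soluble relative, had 531 and 673 CPM in MCF10A and 786 and 1105 CPM in G12V cells and was not DE. ADAM12 rose, with 15.6 and 12.7 CPM in MCF10A and 137 and 106 CPM in G12V cells (log2 fold change 3.10, SE 0.23, edgeR adjusted p = 0.00168), and so did MMP16 from under 1 CPM (4.11). MMP14, the main membrane-bound collagenase, fell (log2 fold change -1.82, SE 0.31, edgeR adjusted p = 0.0190), with MMP28 (-3.81) and ADAM8 (-3.21). In the plasminogen system 2 of 13 genes were higher and 4 lower. Both activators fell, PLAT (-1.79) and PLAU (-1.42), and the receptor PLAUR rose (log2 fold change 1.47, SE 0.34, edgeR adjusted p = 0.0481). PLAUR was not DE without MCF10A replicate 2 (1.07).

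Integrins outside the hemidesmosome were higher in 3 and lower in 3 of 21 genes, beside 5.01% higher and 5.95% lower of all genes. ITGB6, the epithelial partner that activates latent TGF-β, had 92.2 and 58.2 CPM in MCF10A and 0.257 and 0.0892 CPM in G12V cells (log2 fold change -8.71, SE 0.50, edgeR adjusted p = 0.000846). ITGA5, the α chain of the fibronectin receptor, had 137 and 139.5 CPM in MCF10A and 344 and 677 CPM in G12V cells (log2 fold change 1.89, SE 0.35, edgeR adjusted p = 0.0233), while ITGA2, a collagen receptor chain, fell (-1.57). The shared β1 chain ITGB1 and its partner ITGA3 were not DE (-0.41 and -0.0044). Of 22 contractile genes 3 were higher and 7 lower. TAGLN and MYL9, a calponin relative and a myosin light chain of smooth muscle, fell. TAGLN had 121 and 27.1 CPM in MCF10A and 1.5 and 1.56 CPM in G12V cells (log2 fold change -5.59, SE 0.79, edgeR adjusted p = 0.0104), and MYL9 had 30.4 and 9.21 CPM in MCF10A and 0.470 and 0.892 CPM in G12V cells (log2 fold change -4.85, SE 0.72, edgeR adjusted p = 0.0120). The filamin FLNC and the calponin CNN3 rose (4.21 and 1.66), and FLNA and VIM, the most abundant members, had log2 fold changes of 0.17 and 0.71 and were not DE.

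Guidance genes, whose ligands and receptors steer axons and sort cells, were higher in 5 and lower in 6 of 35. The ephrin receptors split by member. EPHA3 had 0.182 and 0 CPM in MCF10A and 11.8 and 12.3 CPM in G12V cells, and EPHA1 had 10.3 and 17.7 CPM in MCF10A and 0.214 and 0.0446 CPM in G12V cells. EPHA3 went from 4 and 0 reads to a stable level in both G12V libraries, and EPHA1 to near 0. The log2 fold change of EPHA3 was 6.98, and 11.11 without MCF10A replicate 1, which left no reads in that group. EPHB2 and EPHB3 fell (-2.54 and -5.17), while EPHA2 rose (1.08). EPHA2 was not DE without MCF10A replicate 2 (1.08) or without G12V replicate 2 (0.85). SEMA6B had 3.14 and 5.15 CPM in MCF10A and 40.7 and 61.6 CPM in G12V cells (log2 fold change 3.62, SE 0.36, edgeR adjusted p = 0.00405), a transmembrane semaphorin, and the secreted guidance cue SLIT2 rose with it (1.79).

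Secreted inflammatory factors were higher in part. Of 11 tested chemokine ligands 6 were higher and 1 lower, with a median of 4.06. CXCL1 had 37.2 and 20.1 CPM in MCF10A and 1065 and 391 CPM in G12V cells, and CXCL3 had 0.636 and 0.352 CPM in MCF10A and 36.3 and 21.4 CPM in G12V cells. They attract neutrophils through CXCR2, and the groups were far apart in both (log2 fold change 4.67, SE 0.60, edgeR adjusted p = 0.00814 for CXCL1). CCL20 had 5.64 and 2.38 CPM in MCF10A and 90.4 and 105 CPM in G12V cells, which attracts cells with CCR6 (log2 fold change 4.60, SE 0.43, edgeR adjusted p = 0.00331). CCL2, a monocyte attractant, had 1 and 0 reads in MCF10A and was at least 62.5-fold higher. CXCL1, CXCL2 and CXCL3 are close copies, so their reads may be shared. CXCL16 and CCL28 were lower in value, by -1.10 and -0.82, and were not DE.

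Of 25 interleukins and receptors 7 were higher and 3 lower. IL1A had 35.6 and 18.7 CPM in MCF10A and 193 and 478 CPM in G12V cells, and IL1B had 10.4 and 3.30 CPM in MCF10A and 285 and 498 CPM in G12V cells. These are the interleukin-1 cytokines, and both rose (log2 fold change 3.63, SE 0.54, edgeR adjusted p = 0.0121 for IL1A and log2 fold change 5.84, SE 0.64, edgeR adjusted p = 0.00531 for IL1B). CSF3, the granulocyte colony-stimulating factor, had 18.6 and 11.6 CPM in MCF10A and 570.4 and 442 CPM in G12V cells (log2 fold change 5.07, SE 0.34, edgeR adjusted p = 0.00127). IL6, whose promoter is shown above, had 0 and 0.0440 CPM in MCF10A and 38.6 and 38.2 CPM in G12V cells and was at least 286-fold higher. The receptor chains IL20RB and IL1RAP fell (-1.99 and -1.24), and IL6ST and OSMR, signal chains of the IL-6 family, were not DE (0.25 and 0.41).

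Parental cells given DMSO, the vehicle of the drug arm, are set beside these. The 3 DMSO libraries of parental MCF10A were counted on another annotation and normalized on their own, so levels are set side by side with no test. They held 261, 666 and 705 CPM of IL1B, 205, 585 and 175 CPM of CSF3 and 251, 463 and 265 CPM of IL1A. These levels reach those of the G12V libraries, whereas CCL2 was at or below 0.0621 CPM and IL6 at or below 1.86 CPM with DMSO. On the log2 scale the mean DMSO level lay nearer to G12V than to MCF10A cells for 4 of 5 higher chemokine genes found in both tables, 5 of 7 higher interleukin genes and 7 of 8 higher genes of ERK output. Over all DE genes found in both tables it lay nearer to MCF10A for 493 of 689 higher genes (71.6%) and 545 of 835 lower genes (65.3%). The epithelial lists were mixed in this respect. Among lower genes it lay nearer to MCF10A in 7 of 8 of the desmosome, 5 of 6 of the hemidesmosome, 6 of 8 keratins, 10 of 15 epithelial factors, 5 of 8 of the squamous list and 8 of 8 basal markers, but in 4 of 9 of the tight junction and 0 of 4 kallikreins. Among lower contractile genes this held for 7 of 7, among higher NRF2 genes for 7 of 13 and among higher genes of MHC class I for 0 of 3. The part of culture conditions in these differences was not tested.

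**Figure D4:**
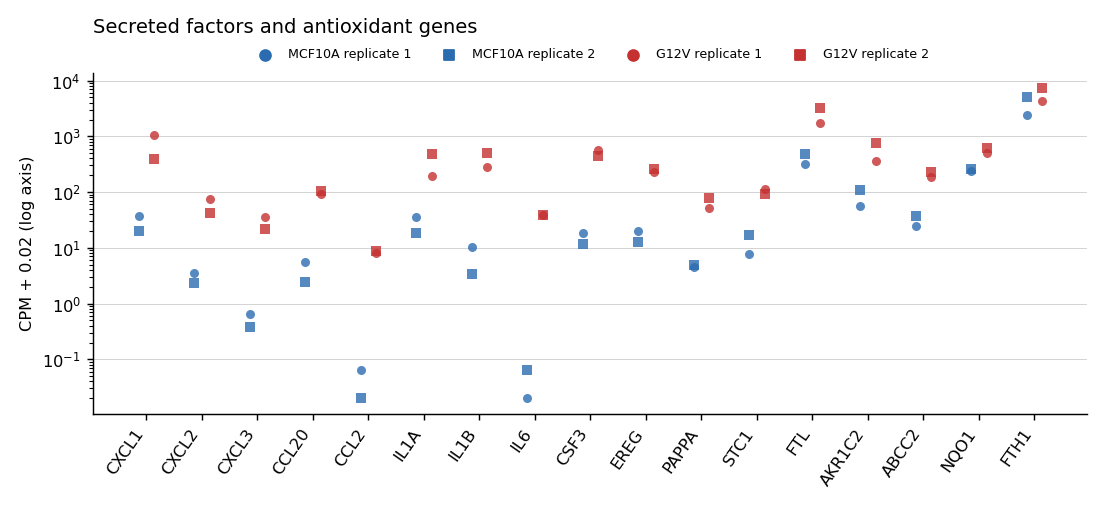
Normalized level of 17 secreted factor and antioxidant genes in each library, as CPM + 0.02 on a log axis, with MCF10A in blue, G12V in red, circles for replicate 1 and squares for replicate 2. The red points lie above the blue points in all genes except FTH1, whose groups overlap.

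Of 16 genes of the insulin-like growth factor system 3 were higher and 1 lower. PAPPA, a protease that frees the factors from binding proteins, had 4.45 and 4.84 CPM in MCF10A and 52.0 and 78.5 CPM in G12V cells (log2 fold change 3.81, SE 0.29, edgeR adjusted p = 0.00179), and its inhibitor STC1 had 7.73 and 17 CPM in MCF10A and 111 and 93.5 CPM in G12V cells (log2 fold change 3.05, SE 0.39, edgeR adjusted p = 0.00811). IGFBP7 had 144 and 162 CPM in MCF10A and 2.61 and 2.94 CPM in G12V cells (log2 fold change -5.78, SE 0.22, edgeR adjusted p = 0.000452). Antigen presentation by MHC class I had 3 higher and 0 lower genes of 18, beside 5.01% higher and 5.95% lower of all genes. At an unadjusted p under 0.05 this list had 7 higher and 0 lower genes. DESeq2 and the exact test each called 5 higher and 0 lower. The immunoproteasome subunits PSMB9 and PSMB8 rose (2.74 and 0.86) with HLA-B (1.30), and B2M and CANX were not DE. PSMB8 was not DE without MCF10A replicate 2 (0.84), without G12V replicate 1 (0.83) or without G12V replicate 2 (0.89). HLA genes are alike, and reads may be split among them. Interferon-stimulated genes had 3 higher and 1 lower of 33, beside 5.01% higher and 5.95% lower of all genes. The share of DE genes in this list (12.1%) was thus close to that of all genes. IFI44L had the largest rise in the list (log2 fold change 2.40, SE 0.30, edgeR adjusted p = 0.00725).

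Antioxidant genes that NRF2 activates were higher in 13 and lower in 1 of 32 beside 5.01% and 5.95% of all genes, with a median of 1.20. DESeq2 and the exact test each called 20 higher and 1 lower. FTL, the light chain of the iron store ferritin, had 323 and 481 CPM in MCF10A and 1701 and 3238 CPM in G12V cells (log2 fold change 2.62, SE 0.42, edgeR adjusted p = 0.0150). AKR1C2 had 55.5 and 111 CPM in MCF10A and 365 and 755 CPM in G12V cells, and AKR1C1 had 17.5 and 51.2 CPM in MCF10A and 157 and 459 CPM in G12V cells. These aldo-keto reductases reduce reactive carbonyls, are near-identical copies, and were higher in G12V cells (log2 fold change 2.75, SE 0.48, edgeR adjusted p = 0.0203 for AKR1C2). ABCC2, an export pump for glutathione conjugates, had 24.3 and 37.2 CPM in MCF10A and 185 and 229.6 CPM in G12V cells (log2 fold change 2.75, SE 0.27, edgeR adjusted p = 0.00395). GCLM, the regulatory subunit of the enzyme that limits glutathione synthesis, had 58.2 and 41.3 CPM in MCF10A and 108 and 123 CPM in G12V cells (log2 fold change 1.22, SE 0.23, edgeR adjusted p = 0.0236). GCLM was not DE without MCF10A replicate 2 (0.99). GSTP1, a glutathione transferase, fell, with 959 and 1162 CPM in MCF10A and 333 and 367 CPM in G12V cells (log2 fold change -1.60, SE 0.24, edgeR adjusted p = 0.0120). The ferritin heavy chain FTH1, with 2447 and 5171 CPM in MCF10A and 4254 and 7247 CPM in G12V cells, and the metallothionein MT2A, with 3437 and 4417 CPM in MCF10A and 2534 and 3112 CPM in G12V cells, were not DE.

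Of 38 genes of glycolysis and the hypoxia response 7 were higher and 1 lower. The oxygen sensor EGLN3 had 0.954 and 0.617 CPM in MCF10A and 23.6 and 23.0 CPM in G12V cells (log2 fold change 4.88, SE 0.34, edgeR adjusted p = 0.00140), and VEGFA, the angiogenic factor, had 59.2 and 35.7 CPM in MCF10A and 141 and 169 CPM in G12V cells (log2 fold change 1.71, SE 0.28, edgeR adjusted p = 0.0167). ADM and ENO2 rose too (1.76 and 2.36). The glucose transporter SLC2A1 fell (log2 fold change -1.16, SE 0.21, edgeR adjusted p = 0.0222). SLC2A1 was not DE without G12V replicate 2 (-0.98). The abundant enzymes GAPDH and ENO1 were not DE (0.23 and 0.41). In the ATF4 and unfolded protein list 2 of 30 genes were higher and 2 lower, beside 5.01% higher and 5.95% lower of all genes. The share of DE genes in this list (13.3%) was thus close to that of all genes. At an unadjusted p under 0.05 it had 11 higher and 2 lower genes, and 9 higher and 2 lower with DESeq2 and with the exact test. The median was 0.45. Both lower genes form the transporter for large neutral amino acids. SLC7A5 had 2924 and 1962 CPM in MCF10A and 584 and 569 CPM in G12V cells (log2 fold change -2.08, SE 0.31, edgeR adjusted p = 0.0117), and SLC3A2 had 635 and 481 CPM in MCF10A and 226 and 241 CPM in G12V cells (log2 fold change -1.26, SE 0.23, edgeR adjusted p = 0.0232). SLC3A2 was not DE without G12V replicate 1 (-1.21) or without G12V replicate 2 (-1.31). Of 28 cholesterol and lipid synthesis genes 1 was higher and 0 lower, namely INSIG1 (log2 fold change 1.94, SE 0.37, edgeR adjusted p = 0.0252), with 3 higher and 1 lower at an unadjusted p under 0.05, 3 higher and 0 lower with DESeq2 and 1 higher and 0 lower with the exact test.

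Genes of cell division did not separate the groups. Among 41 replication genes and 43 mitosis genes edgeR's quasi-likelihood test, its exact test and DESeq2 called 0, and 1 and 1 had an unadjusted p under 0.05. The summed level of the replication genes was 3719 and 2030.4 CPM in MCF10A and 3793 and 1583 CPM in G12V cells, and that of the mitosis genes was 6047 and 4343 CPM in MCF10A and 6492 and 4108 CPM in G12V cells. In both groups 41 of 41 replication genes were higher in replicate 1 than in replicate 2, and 40 of 43 mitosis genes were. The median log2 ratio of replicate 1 to replicate 2 over the replication genes was 0.88 in MCF10A and 1.34 in G12V cells. Ribosomal protein genes showed the opposite, with all 77 higher in replicate 2 in both groups and a summed level of 58224 and 89092 CPM in MCF10A and 49679 and 66871 CPM in G12V cells. Of these 77 genes 0 were DE by any of the 3 tests and 0 had an unadjusted p under 0.05. In the summed levels of these lists the spread between replicates thus exceeded the difference between the group means. Of the 77 ribosomal genes 73 had a negative log2 fold change, with a median of -0.35. With the replicate number as a block 2 replication genes were called higher and 4 lower, and 3 mitosis genes higher and 1 lower. That fit called 1 ribosomal gene higher and 2 lower. 

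**Figure D5:**
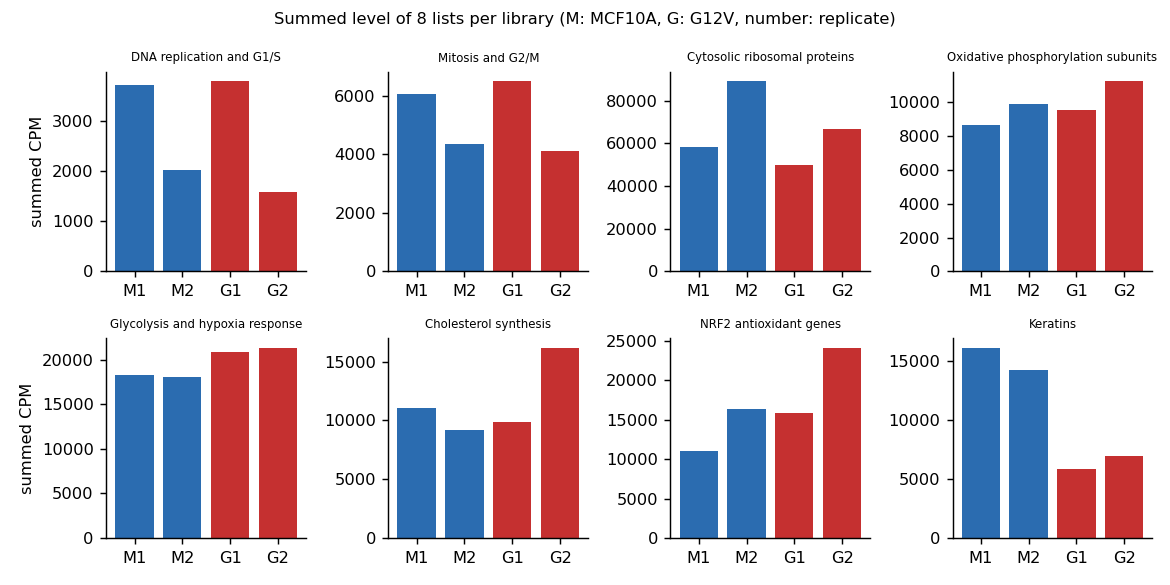
Summed CPM (y axis, bars from 0) over the tested members of 8 gene lists in each library, with M1 and M2 for MCF10A replicates 1 and 2 and G1 and G2 for G12V replicates 1 and 2. Replication and mitosis sums are high in replicate 1 and ribosomal sums high in replicate 2 of both groups, while keratin sums are lower in both G12V libraries.

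Inhibitors of cyclin-dependent kinases and D cyclins gave 0 calls of 14 in edgeR's quasi-likelihood test, with 1 higher and 1 lower gene at an unadjusted p under 0.05, with DESeq2 and with the exact test, and CCND1 had 397 and 181 CPM in MCF10A and 394 and 314 CPM in G12V cells. Among 30 p53 targets 1 was higher (PMAIP1) and 2 were lower, SFN (-2.25) and TP53I3 (-1.03), beside 5.01% higher and 5.95% lower of all genes. DESeq2 and the exact test each called 4 higher and 2 lower p53 targets. The BCL2 family, which sets the threshold of apoptosis, had 3 higher and 3 lower of 16. BCL2L1, which encodes the survival protein BCL-XL, had 89.2 and 77.3 CPM in MCF10A and 152 and 198 CPM in G12V cells (log2 fold change 1.07, SE 0.21, edgeR adjusted p = 0.0277). BCL2L1 was not DE without MCF10A replicate 2 (0.97) or without G12V replicate 2 (0.87). The pro-apoptotic genes PMAIP1 and BID rose (1.22 and 0.77), and BIK, also pro-apoptotic, fell (log2 fold change -2.90, SE 0.42, edgeR adjusted p = 0.0110). PMAIP1 was not DE without MCF10A replicate 2 (1.39) or without G12V replicate 2 (1.02). BID was not DE without MCF10A replicate 2 (0.75), without G12V replicate 1 (0.78) or without G12V replicate 2 (0.75). MCL1 had 784 and 977 CPM in MCF10A and 1029.8 and 2259 CPM in G12V cells, higher mainly in G12V replicate 2, and was not DE.

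Of 76 subunits of oxidative phosphorylation 1 was higher and 1 lower, both of the ATP synthase. ATP5G1 had 73.1 and 63.3 CPM in MCF10A and 171 and 169 CPM in G12V cells (log2 fold change 1.32, SE 0.18, edgeR adjusted p = 0.00917), and ATP5I had 56.2 and 53.2 CPM in MCF10A and 25.6 and 26.0 CPM in G12V cells (log2 fold change -1.09, SE 0.19, edgeR adjusted p = 0.0188). The catalytic subunit ATP5B had 916 and 952 CPM in MCF10A and 1157 and 1389 CPM in G12V cells and was not DE. The median over the 76 genes was 0.13. ATP5I lies near the end of chromosome 4, as does FGFR3, named above. The 89 genes tested up to 10 Mb there had a median of -0.76, with 5 higher and 24 lower. The rest of that chromosome had a median of -0.0060. Whether this bears on either gene was not tested.

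Some of the genes above overlap another tested gene on the opposite strand, and their reads could be shared with it because the strand setting of the counting is not given in the sources used here. They are BCL2L1, CLDN7, CRB3, CXCL16, EPHA1, ESRP2, FOXC2, IGFBP7, LOXL2, MAP2K1, PLAU, PSMB8, TIMP1, TIMP3, TP53I3 and VIM. A gene can stand in more than one list.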

How the data were processed

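RNA-seq of 2 untreated MCF10A and 2 G12V libraries was analysed, and 3 DMSO libraries gave levels only. Per the labels the reads were handled with TopHat, HTSeq and edgeR on hg19. The authors deposited raw gene counts made by HTSeq from these alignments of poly(A) libraries, with no scaling applied. The annotation, the strand setting and the handling of overlapping genes are not given in the sources used here. The DMSO table has an annotation of its own. The libraries given Nutlin-3a were not used here.

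Genes with too few reads were dropped by the default filterByExpr rule, and 14376 genes were fitted with TMM factors by the quasi-likelihood F-test of edgeR 4.0.16 (R 4.3.3), with Benjamini-Hochberg adjustment. The prior count was 0.125. The SE of a log2 fold change was taken as its size divided by the square root of F. Where no library of a group exceeded 3 reads, a fold is a lower bound set against 3 reads in every library of that group. These bounds and the read totals describe counting error only, as PCR copies were not removed by molecular identifiers. For single genes a permutation of 2 and 2 libraries has a smallest exact p of 0.333. Spreadsheet dates had replaced 28 gene symbols, and 23 of these entries were tested and not named. The test was run on simulated data for this comparison. Of 200 changed genes 146 were recovered there, with 5 false calls among 14156 genes tested, the changed ones included. The simulated libraries had the same spread setting for every gene and no effect shared by replicate number. Only genes with many reads were changed, so these figures do not carry over to the measured libraries. The share of false calls in the measured libraries was not tested.

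The members of 43 gene lists and 6 marker lists, and the comparisons, were chosen with earlier results of these data known. Lists were described by counts and medians, with no test. The named genes were taken from a rule: HRAS, the top 15 DE genes in each direction that reached at least 10 CPM on average, and in a list up to 4 DE genes per direction with at least 5 CPM in the higher group plus up to 2 abundant genes that were not DE. Not all genes that the rule allows are named, and a few marker and family members named for context fall outside it and were chosen after their values were seen. Promoters came from RefSeq (GRCh38.p14), matched by symbol. The fit was repeated with DESeq2 1.42.0 and with edgeR's exact test, with RLE, upper-quartile and no scaling factors, unfiltered, with genes above 1 CPM in at least 2 libraries, with the replicate number as a block, with a prior of 2, and with single libraries omitted. Figures were drawn in Python 3.11.15 with matplotlib 3.10.9. Some items are not reported here.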

Additional observations from a re-analysis of the deposited data

How the results depend on the processing

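The 1575 DE genes became 2536 under the exact test of edgeR, split into 1230 higher and 1306 lower genes, and 4158 with the replicate block, split into 2071 and 2087. DESeq2 called 1111 higher genes in a total of 2307. The exact test and the replicate block each called all 1575 genes in the same direction, and DESeq2 called 1539 of them, also in the same direction. Across the quasi-likelihood fits that omit 1 library, DE genes numbered 0 to 2129, with 0 to 1126 higher and 0 to 1003 lower. The 0 came from the quasi-likelihood test of edgeR without MCF10A replicate 1, where 2830 genes had an unadjusted p under 0.05. DESeq2 and the exact test, which were added for these 3 libraries after seeing the data, called 1489 and 2118. HRAS lay between 2.89 and 3.19 on the log2 scale in these fits and was not DE without MCF10A replicate 1 (edgeR adjusted p = 0.0775). The other scaling factors, filters and prior count gave 1402 to 1686 DE genes. Deviations from the group means correlated at 0.554 between libraries of one number. The labels do not say whether libraries of one number were made together, so the block was kept as an alternative. No named DE gene changed direction under an alternative, and the 11 lists with a median beyond 1 in size kept its sign in each. In the reported fit, with 2 libraries per group and no block, differences smaller than the spread between replicates could be missed.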

Other observations

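The genes in this section stand in none of the lists and were chosen after their values had been seen. The lists hold 251 of the DE genes, and 1324 DE genes stand in none. The matriptase system of epithelial surface proteases was lower in 3 named members. ST14, the membrane protease matriptase, had 237 and 255 CPM in MCF10A and 5.22 and 5.80 CPM in G12V cells. The protease PRSS8 had 29.5 and 34.2 CPM in MCF10A and 0.257 and 0.624 CPM in G12V cells. The inhibitor SPINT2 had 396 and 519 CPM in MCF10A and 52.8 and 96.7 CPM in G12V cells. Each was DE (-5.48, -6.17 and -2.61 on the log2 scale). The connexin gene GJB5 of skin gap junctions had 64.3 and 67.7 CPM in MCF10A and 1.80 and 1.25 CPM in G12V cells. MIR205HG, the host transcript of an epithelial microRNA, had 231 and 249.5 CPM in MCF10A and 0.385 and 0.0446 CPM in G12V cells.

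Some single genes outside the lists were DE and higher. SAA2 had 4.45 and 8.59 CPM in MCF10A and 131 and 261 CPM in G12V cells, and SAA1 had 35.8 and 59.2 CPM in MCF10A and 326 and 584 CPM in G12V cells. These serum amyloid genes are near copies of each other (log2 fold change 4.91, SE 0.49, edgeR adjusted p = 0.00400 for SAA2). The metal reductases STEAP1 and STEAP2 had 4.64 and 1.5 CPM in MCF10A and 54.7 and 84.3 CPM in G12V cells and 6.36 and 4.58 CPM in MCF10A and 117 and 249.7 CPM in G12V cells. NAMPT, the enzyme that recycles nicotinamide to NAD, had 149.9 and 253 CPM in MCF10A and 902 and 1753 CPM in G12V cells (log2 fold change 2.72, SE 0.44, edgeR adjusted p = 0.0152), and the hexosamine pathway enzyme GFPT2 had 10.3 and 5.11 CPM in MCF10A and 441 and 475 CPM in G12V cells (log2 fold change 5.90, SE 0.40, edgeR adjusted p = 0.00136).

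The genes ITCH and LATS1 also rose. ITCH, a ubiquitin ligase, had 134 and 130.2 CPM in MCF10A and 1189 and 1319.9 CPM in G12V cells (log2 fold change 3.25, SE 0.24, edgeR adjusted p = 0.00159). LATS1, a kinase of the Hippo pathway, had 48.7 and 50.3 CPM in MCF10A and 409 and 749 CPM in G12V cells (log2 fold change 3.55, SE 0.35, edgeR adjusted p = 0.00375). In the DMSO libraries ITCH had 96.4, 108 and 108 CPM and LATS1 62.2, 75.9 and 62.7 CPM.

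Families read by symbol had shares of DE genes that differed, beside 5.01% higher and 5.95% lower over all genes. Zinc finger genes of the ZNF series had 3 higher and 19 lower of 461 (4.77%), long intergenic non-coding RNAs 4 higher and 3 lower of 183 (3.83%), and solute carriers 22 higher and 21 lower of 255 (16.9%). Potassium channel genes had 6 higher and 4 lower of 35 (28.6%).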
